A study of Mus musculus with 4 samples.

Results

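The 8 genes described here, H2-K1, H2-D1, H2-T23, B2m, Tap1, Tap2, Tapbp and Nlrc5, serve peptide presentation on class I molecules of the major histocompatibility complex (MHC). They were taken by gene symbol from 4 expression tables of sorted alveolar type 1 (AT1) cells, the flat epithelial cells across which the lung exchanges gas, and are 8 of 23990 genes measured. The libraries came from littermate mice of mixed B6 and 129 strain at postnatal day 3 or 4. All animals carried Scnn1a-Cre, a Cre recombinase driven from the gene of a sodium channel subunit, and at the Rosa locus 1 allele of a Sox2 transgene or of the membrane reporter mTmG, so the controls express Cre as well. The 2 libraries with the Sox2 genotype are called labelled Sox2 and the 2 with the reporter labelled control, and whether the pair of libraries behind each label stems from separate animals is not stated. P-values therefore measure only the spread between these libraries, which may be technical. Levels are in FPKM (fragments scaled to transcript length and to library depth), and each was deposited with an interval, called its bounds here.

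Every nucleated cell uses class I molecules to show peptides of its own proteins to CD8+ T cells and natural killer cells. Proteasomes cut proteins into peptides, the transporter formed by Tap1 and Tap2 carries the peptides into the endoplasmic reticulum, and tapasin (Tapbp) holds an empty class I molecule beside that transporter until a peptide binds. The class I molecule itself joins a polymorphic heavy chain with beta-2 microglobulin (B2m). Nlrc5 is the transactivator of class I genes, and interferons raise the genes of this pathway. Epithelial cells of the lung present on class I at rest and more strongly during viral infection.

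Facts of the whole series bear on how directions are read. Sox2, the gene that the labels name, stood at 1.41 and 1.99 FPKM in labelled Sox2 and at 302 and 477 FPKM in labelled control, a log2 difference of -7.15 (SE 0.34, adjusted p = 2.39e-06 in limma). It thus goes against the labels, and every direction below follows the labels as deposited. Summed over 10 AT1 markers, the level was 6190 and 7240 FPKM in labelled Sox2 and 1170 and 658 FPKM in labelled control, with no marker at 0. Markers of other cell types that the sort could hold were summed in the same way. For 25 leukocyte markers they were 290 and 104 against 117 and 82.4 FPKM, with Nkg7 and Gzma at 0 in some libraries. The 10 endothelial markers summed to 219 and 147 against 57.9 and 24.5 FPKM with none at 0, and the 9 mesenchymal markers to 305 and 106 against 134 and 32.9 FPKM, with Lum at 0 in labelled Sox2 replicate 2. The 8 alveolar type 2 markers summed to 24800 and 17200 against 5880 and 937 FPKM, and 6 erythroid ones to 202 and 927 against 56.3 and 256 FPKM, none at 0. The labels overlap in the leukocyte, mesenchymal and erythroid sums and not in the endothelial and alveolar type 2 sums. In bulk RNA, fewer cells of a type and less RNA per cell cannot be told apart.

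Classical heavy chain genes and B2m are known for a shared promoter module that binds the RFX, CREB/ATF and NF-Y factors with which Nlrc5 works, next to sites for NF-kB and interferon regulatory factors. The promoters of H2-K1, H2-D1 and B2m are shown so that these letters can be compared, with that of H2-T23, which lacks several of them, beside them. Promoter sequences from RefSeq (build GRCm38.p6, the sequence of mm10) were matched for 6 of the 8 members by symbol; Tap2 and Nlrc5 had no entry. Each line gives the 200 bases before the start site nearest to the deposited gene start, 5′ to 3′ on the gene's strand. Capitals mark matches, on either strand and overlapping ones included, to the cyclic AMP response core TGACG, the CCAAT box CCAAT, the interferon regulatory factor core AANNGAAA and the NF-kB consensus.
H2-K1, chr17:34000334-34000533, minus strand: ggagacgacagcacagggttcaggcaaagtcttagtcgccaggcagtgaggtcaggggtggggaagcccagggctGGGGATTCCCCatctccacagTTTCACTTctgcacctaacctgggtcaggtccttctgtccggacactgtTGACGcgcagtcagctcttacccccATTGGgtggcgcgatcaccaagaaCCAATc
H2-D1, chr17:35262894-35263093, plus strand: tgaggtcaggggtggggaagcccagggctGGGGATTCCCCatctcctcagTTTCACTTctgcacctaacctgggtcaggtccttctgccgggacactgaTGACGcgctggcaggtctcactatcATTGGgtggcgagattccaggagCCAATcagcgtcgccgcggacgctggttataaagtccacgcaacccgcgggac
B2m, chr2:122147487-122147686, plus strand: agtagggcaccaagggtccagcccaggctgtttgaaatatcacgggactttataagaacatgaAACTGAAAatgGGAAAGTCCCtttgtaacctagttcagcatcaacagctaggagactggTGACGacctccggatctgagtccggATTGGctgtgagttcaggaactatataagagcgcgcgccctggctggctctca
H2-T23, chr17:36032702-36032901, minus strand: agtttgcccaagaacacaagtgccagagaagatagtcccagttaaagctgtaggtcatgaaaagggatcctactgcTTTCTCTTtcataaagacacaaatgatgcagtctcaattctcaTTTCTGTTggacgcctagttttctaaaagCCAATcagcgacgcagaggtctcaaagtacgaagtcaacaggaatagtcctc

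TGACG was followed on the gene's strand by ATTGG, the reverse complement of CCAAT, with 20 bases between them, in H2-K1, H2-D1 and B2m. The pair was then searched on either strand, with 10 to 25 bases between its parts, in windows of 300 bases. It was held by 0.603% of all 32851 promoters in the table, and not by the windows of H2-T23, Tap1 and Tapbp. Its spacing was chosen after the sequences were seen. H2-K1 and H2-D1 also share the run GGGATTCCCC and, a few bases on, TTTCACTT, which reads as the interferon regulatory factor core on the other strand. In B2m these parts stand in the opposite order, AACTGAAA before GGAAAGTCCC. H2-T23 held 2 interferon regulatory factor cores and 1 CCAAT box but neither TGACG nor an NF-kB match. Among all promoters of this length 23.9% held AANNGAAA, 20.8% TGACG, 37.4% CCAAT and 8.46% the NF-kB consensus. Single matches to AANNGAAA, TGACG and CCAAT are thus common, and those to the NF-kB consensus less so. A match describes the letters only and is not evidence of binding.

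The classical heavy chains, which hold the peptides shown to CD8+ T cells, were abundant in all 4 libraries. H2-K1 (chromosome 17, 33996012 to 34000333, mm10) stood at 118 and 93.2 FPKM in labelled Sox2 and at 98.5 and 113 FPKM in labelled control. The labels overlap fully, since the highest and the lowest value both belong to labelled Sox2. Means were 106 ± 17.8 (SD, n = 2) and 105 ± 9.93 (SD, n = 2) FPKM, and the log2 difference, computed on log2(FPKM + 1) with labelled control subtracted from labelled Sox2, was -0.00376 (SE 0.306, adjusted p = 0.995 in limma). Its 95% interval runs from a ratio of 0.625 to one of 1.59, and a change within that range cannot be told from none. H2-D1 (chromosome 17, 35263094 to 35267497) stood at 179 and 172 against 132 and 161 FPKM. Both libraries labelled Sox2 lie above both labelled control, yet the log2 difference of 0.27 (SE 0.30, adjusted p = 0.597 in limma) did not pass, with an interval from a ratio of 0.761 to 1.92.

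B2m (chromosome 2, 122147687 to 122153082), the invariant light chain that every class I heavy chain needs, stood at 145 and 89.2 against 84.1 and 89.1 FPKM. Only labelled Sox2 replicate 1 is high, and the other 3 libraries lie close together. That library also has the highest summed alveolar type 2, leukocyte, endothelial and mesenchymal marker levels given above, and their part in the B2m value was not tested. The log2 difference was 0.39 (SE 0.33, adjusted p = 0.471 in limma) and 0.04 without that library. The summed FPKM of H2-K1 and H2-D1 was 2.05 and 2.98 times that of B2m in labelled Sox2 and 2.74 and 3.06 times in labelled control.

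H2-T23 encodes Qa-1, a non-classical heavy chain that shows leader peptides of other class I chains to natural killer cells. It lies on chromosome 17 at 36029977 to 36032701. Its level was 19.5 and 23.8 FPKM in labelled Sox2, and 5.77 and 18.8 FPKM in labelled control. A single library, labelled control replicate 1, is low, 3.26-fold below the other control, while the remaining 3 span a narrow range. The deposited bounds of the controls, 4.90 to 6.65 and 16.9 to 20.7 FPKM, do not overlap. The log2 difference of 0.96 (SE 0.47, adjusted p = 0.198 in limma) was the largest of any tested member and did not pass, with an interval from -0.07 to 2.00. Without labelled control replicate 2 it was 1.74 and passed (adjusted p = 0.00608 in limma), and without labelled control replicate 1 it was 0.19 (adjusted p = 0.862 in limma).

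Peptide transport and loading genes lay below H2-K1, H2-D1 and B2m in every library, and each was highest in labelled control replicate 2. Tap1 (chromosome 17, 34187556 to 34197225) stood at 5.63 and 5.66 against 5.64 and 12.0 FPKM. Labelled control replicate 2 alone is high, and the other values are nearly equal. Tap2 (chromosome 17, 34204479 to 34216321), which pairs with Tap1, stood at 10.7 and 7.96 against 8.19 and 15.0 FPKM. Tapbp (chromosome 17, 33919478 to 33929290), the peptide loading bridge, stood at 57.1 and 65.8 against 49.4 and 85.4 FPKM. For all of Tap1, Tap2 and Tapbp the highest value is that of labelled control replicate 2, by a factor of 2.13, 1.84 and 1.73 over the other control, and the labels overlap. That library has the lowest summed AT1, alveolar type 2, leukocyte, endothelial and mesenchymal marker levels. Small RNA genes (symbols starting with Mir or Snor) hold 367471 of its 721291 summed FPKM, against 94467.4 of 490446 in the other control. The part of either in these values was not tested.

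The log2 differences were -0.48 (SE 0.42) for Tap1, -0.24 (SE 0.40) for Tap2 and -0.08 (SE 0.34) for Tapbp, with limma adjusted p of 0.483, 0.729 and 0.903. Those of Tap2 and Tapbp turned positive under both rescalings of the libraries (0.07 and 0.07 for Tap2, 0.27 and 0.25 for Tapbp), and with labelled control replicate 2 left out they were 0.16 and 0.31. Tap1 then had a difference of 0.00. Relative to Tap1, Tapbp was 10.1- and 11.6-fold more abundant in labelled Sox2 and 8.75- and 7.13-fold in labelled control.

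Nlrc5 (chromosome 8, 94472763 to 94527272) was listed at 0.175 and 0.143 FPKM in labelled Sox2 and at 0.0588 and 0.0154 FPKM in labelled control. Both labelled Sox2 values are the higher ones, but the bounds of labelled Sox2 replicate 2 (0.0686 to 0.218 FPKM) and labelled control replicate 1 (0.0233 to 0.0943 FPKM) overlap, and the lower bound of labelled control replicate 2 is 0. The transactivator did not reach the mean of 1 FPKM required for testing, so no fold or test is given.

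By mean FPKM, which is per transcript length and so comparable between genes, the order was H2-D1 (161), H2-K1 (106), B2m (102), Tapbp (64.4), H2-T23 (17), Tap2 (10.5), Tap1 (7.23) and Nlrc5 (0.0982). H2-K1 and B2m are not separated, since H2-K1 was higher in 3 of 4 libraries, and neither are H2-T23 and Tap2, also 3 of 4. The other neighbours in this order kept it in 4 of 4 libraries, at ratios that went down to 1.04 for B2m over Tapbp. Among tested genes H2-D1 ranked in the top 1.99% to 3.80% of each library, while Tap1 ranked between 37.0% and 67.7% from the top.

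None of the 7 tested members was higher or lower between the labels in limma, and none had an unadjusted p under 0.05. Of all 12040 tested genes 12.3% were called. The median log2 difference of the tested members was 0.00, against -0.29 for all tested genes, and 6 of the 7 lay above that median. Values of the labels did not overlap in 3 of the 7 tested members, H2-D1, H2-T23 and B2m, where 58.1% of all tested genes do not overlap. For B2m this rests on 89.2 FPKM in labelled Sox2 replicate 2 against 89.1 FPKM in labelled control replicate 2, values whose bounds overlap. Median-of-ratios rescaling moved the median of all tested genes to 0.00 and that of the members to 0.35, and no member passed under it. The deposited bounds failed to overlap between the libraries of 1 label in 5 of 8 members for labelled Sox2 and in 6 of 8 for labelled control, so the spread between libraries is larger than those bounds.

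**Figure D1:**
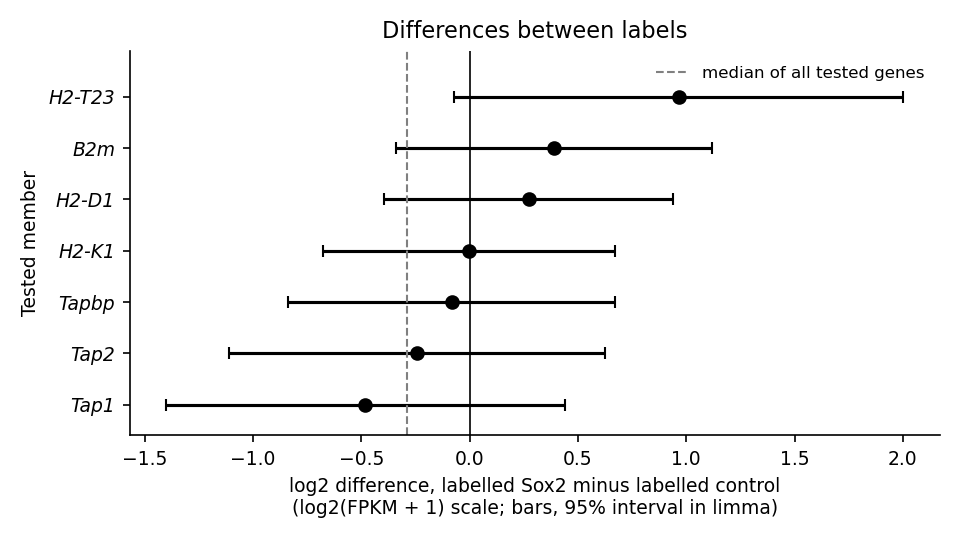
Log2 difference of each tested member, labelled Sox2 minus labelled control in log2(FPKM + 1), with its 95% interval in limma; the dashed line is the median of all tested genes. All 7 intervals include 0, from -0.48 for Tap1 to 0.96 for H2-T23, and the signs of H2-K1, Tap2 and Tapbp turn under both rescalings.

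Among the other class I heavy chains some passed. Of 19 listed, 9 were tested, 3 were higher in labelled Sox2, none was lower and 6 did not pass, at a median of 0.68 and a background of 4.2% called higher. H2-Q7, H2-Q8 and H2-M3 reached the mean of 1 FPKM needed for testing only through labelled Sox2 (means there 2.09, 2.14 and 1.89 FPKM). H2-Q9 reached it only through labelled control (1.39 FPKM). The filter thus bears on these counts and on the median, which support nothing by themselves. The heavy chain genes H2-L and H2-Q5 are not on that list, were tested and did not pass. Their log2 differences were 0.67 and 0.62 (limma adjusted p = 0.259 and 0.319). H2-L and the member H2-D1 both lie about 1.26 Mb from the start site of H2-K1, and whether these entries share fragments was not tested. H2-Q4 stood at 55.0 and 51.4 against 23.6 and 23 FPKM (log2 difference 1.16, adjusted p = 0.0328 in limma). H2-Q2 stood at 14.1 and 15.3 against 1.84 and 2.17 FPKM, 7.34-fold higher (adjusted p = 0.00321 in limma). In both genes the labels are far apart beside the spread within them. H2-Q4 lost its call without labelled Sox2 replicate 1 (adjusted p = 0.148 in limma) or 2 (0.201), and H2-Q2 without labelled Sox2 replicate 2 (0.0758). H2-Q4 also lost it under eBayes without trend (0.0582).

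Closely related copies limit these values. H2-Q8 was listed at 2.33 and 1.94 against values under 0.001 FPKM in both libraries labelled control, and is 1 of the 3 heavy chains counted as higher. It reached the mean of 1 FPKM needed for testing only through labelled Sox2, where it is high, so its call supports nothing by itself, and that call was lost without labelled Sox2 replicate 1 or 2. Its relative H2-Q6, not tested, ran the other way, with values under 0.001 FPKM in both libraries labelled Sox2 against 1.21 and 2.76 FPKM. The sum of H2-Q6, H2-Q7, H2-Q8 and H2-Q9, chosen after these values were seen, was 6.31 and 4.12 against 3.08 and 5.55 FPKM, where the labels overlap. How fragments were divided between such copies is not given in the sources used here.

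In GENCODE M21 transcripts (GRCm38), 9.63% of the 50-base windows of H2-K1 occur in transcripts of another gene, 12.8% of those of H2-D1, 14.5% of H2-T23, 16.1% of H2-Q2 and 36.4% of H2-Q4, and none of those of B2m. Class I genes also differ between strains, and the effect of the mixed strain on alignment to the reference was not tested. A gene on the opposite strand overlaps the deposited span of 5 of the 8 members, among them Psmb9 at Tap1, Patl2 at B2m and Gm19412 at Tapbp. The strand setting of the counting is not given in the sources used here, so fragments in these overlaps cannot be told apart.

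Among 5 class I-like proteins that pair with B2m, 4 were tested and 1 was higher, against a background of 4.2%. This was Fcgrt, the neonatal Fc receptor that carries antibodies across epithelia. It stood at 11.8 and 9.33 against 2.82 and 1.82 FPKM (log2 difference 1.81, adjusted p = 0.0144 in limma), and missed the threshold without labelled Sox2 replicate 1 (0.125) or 2 (0.129).

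Peptides are supplied by the proteasome and by trimming enzymes. Of 5 subunits of the immunoproteasome and its activator PA28, the interferon-inducible forms that favour class I peptides, none passed in limma and none had an unadjusted p under 0.05 (median -0.12). Psme1, an activator subunit, stood at 76.5 and 67.0 against 80.1 and 76.0 FPKM. Psme2, its partner, stood at 55.2 and 45.7 against 69.6 and 75.9 FPKM, labels that do not overlap (log2 difference -0.53, adjusted p = 0.276 in limma). Of the 3 standard catalytic subunits that these forms replace, 1 was called lower (33.3%, background 8.11%), and all 3 had an unadjusted p under 0.05 in limma. Psmb5 and Psmb6 missed the threshold at log2 differences of -0.93 and -1.0 (limma adjusted p = 0.0694 and 0.0513), with labels that do not overlap. Psmb7 passed at a similar difference of -1.08, with 71.1 and 65.2 against 152 and 139 FPKM (adjusted p = 0.0384 in limma). Its call was lost under median-of-ratios and quantile rescaling, under eBayes without trend, and without labelled Sox2 replicate 1 (0.109), labelled Sox2 replicate 2 (0.232) or labelled control replicate 1 (0.0775).

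Of 6 peptide-trimming enzymes 3 were lower in labelled Sox2, 3 others missed the threshold and none was higher, against 8.11% of tested genes called lower. The bleomycin hydrolase Blmh stood at 16.7 and 9.56 against 50.7 and 32.5 FPKM, 3.17-fold lower (adjusted p = 0.0210 in limma). The oligopeptidase Thop1 was 3.77-fold and the leucine aminopeptidase Lap3 2.90-fold lower. Without labelled Sox2 replicate 2 all 3 lost their calls (limma adjusted p = 0.232 for Blmh, 0.305 for Thop1 and 0.305 for Lap3), as did Thop1 (0.110) and Lap3 (0.0609) without labelled control replicate 1 and Thop1 (0.0768) without labelled Sox2 replicate 1. Of 9 helpers of peptide loading in the endoplasmic reticulum none passed in limma, and 1 had an unadjusted p under 0.05. Under both rescalings and the replicate block 1 was higher, and under the block 1 was also lower. The chaperone Calr stood at 319 and 180 against 408 and 226 FPKM, and the disulfide isomerase Pdia3 at 194 and 119 against 264 and 125 FPKM. In both genes replicate 1 exceeds replicate 2 within each label by more than the labels differ.

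Regulators of class I transcription showed no call. None of 16 tested factors passed in limma, and 2 had an unadjusted p under 0.05 (median -0.23). Irf1, an interferon-induced activator of class I promoters, stood at 43.3 and 25.6 against 20.5 and 8.39 FPKM, labels that do not overlap, with a log2 difference of 1.27 (SE 0.44, adjusted p = 0.0800 in limma). It passed under median-of-ratios rescaling (0.032), quantile normalization (0.0385) and the replicate block (0.0123), and without labelled control replicate 1 (0.000476). Rela, the NF-kB subunit p65, stood at 25.5 and 21.6 against 33.3 and 35.1 FPKM (log2 difference -0.52, adjusted p = 0.294 in limma).

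Interferon ligands did not reach the level for testing, and 4 of the 6 were at 0 in every library. Of 11 receptors and signalling genes 1 was higher (9.09%, background 4.2%), the feedback inhibitor Socs3, at 46.2 and 46.3 against 25.5 and 16.0 FPKM (adjusted p = 0.0473 in limma). It missed the threshold without labelled Sox2 replicate 1 (0.166), labelled Sox2 replicate 2 (0.276) or labelled control replicate 2 (0.191), under eBayes without trend (0.0739) and with the filter at a mean of 5 FPKM (0.0504). Of 24 interferon targets outside class I, 13 were tested and 1 was higher (7.69%, background 4.2%), with 2 higher under both rescalings and the replicate block, 3 without labelled control replicate 1, and 0 without either labelled Sox2 library or at a mean of at least 5 FPKM. That gene, Ifit3, which acts in antiviral defence, stood at 3.12 and 3.25 against 0.409 and 0.130 FPKM. It too reached the level for testing only through labelled Sox2, so its call supports nothing by itself. The median of the tested targets was 0.34.

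**Figure D2:**
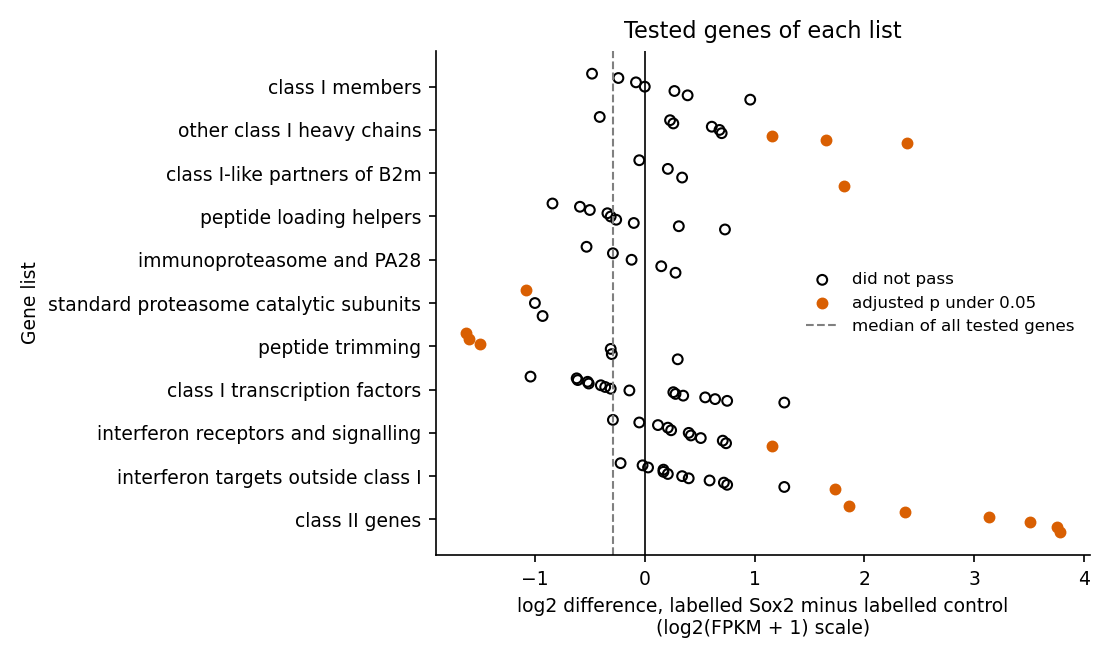
Log2 difference of every tested gene of each list, labelled Sox2 minus labelled control in log2(FPKM + 1); filled points have a limma adjusted p under 0.05 and the dashed line is the median of all tested genes. The 7 class I members are open points around 0, while the 6 tested class II genes of the list are all filled and to the right. H2-DMb2, a class II gene on no list, is not drawn.

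Class II genes, which present peptides from outside the cell and have their own transactivator Ciita, are set beside the members as a reference. Of 9 listed 6 were tested, and all 6 were higher in labelled Sox2, against a background of 4.2% called higher, with a median log2 difference of 3.32. When low genes were kept, 0 of the 9 passed. The class II gene H2-DMb2 is not on that list, was tested and did not pass. It stood at 2.15 and 1.35 against 0.636 and 0.308 FPKM (log2 difference 0.9, adjusted p = 0.154 in limma). The alpha chain gene H2-Aa stood at 99.1 and 64.7 against 7.39 and 3.15 FPKM (adjusted p = 5.16e-04 in limma), and the invariant chain Cd74 at 413 and 298 against 47.1 and 13.2 FPKM (adjusted p = 0.00131 in limma). Their folds of 15.5 and 11.8 became 26.0 and 27.0 when labelled control replicate 1 was left out, and 11.1 and 7.55 when the other control was. Summed over the chain genes H2-Aa, H2-Ab1 and H2-Eb1, class II reached 0.695 and 0.531 of the summed FPKM of H2-K1 and H2-D1 in labelled Sox2, and 0.0759 and 0.0293 in labelled control. The difference between the class I and class II responses was not tested. Of the 25 leukocyte markers 16 were tested and 1 was higher. Among tested markers of other types, 8 of 8 alveolar type 2, 9 of 10 AT1 and 4 of 10 endothelial ones were higher. For mesenchymal markers it was 0 of 8, and for erythroid ones 1 of 5, against a background of 4.2%. The cell source of the class II values was not tested.

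Of the members, 6 lie in the MHC on chromosome 17, within 2.11 Mb from the start of Tapbp at 33919478 to the end of H2-T23 at 36032701. A further 125 genes of the tables that are on none of the lists lie in the same span. Among them are the class II gene H2-DMb2 and the class I heavy chain genes H2-L and H2-Q5. Of these 74 were tested, 3 were higher (4.05%, background 4.2%), 15 were lower (20.3%, background 8.11%) and 56 did not pass, at a median of -0.50. Ager, the receptor that marks AT1 cells, lies in this span and stood at 3260 and 3740 against 496 and 157 FPKM (adjusted p = 0.00151 in limma), 10.7-fold higher, or 22.3-fold with labelled control replicate 1 left out and 7.06-fold with the other control left out. The valyl-tRNA synthetase Vars was 5.04-fold and the chloride channel protein Clic1 4.14-fold lower (limma adjusted p = 0.00255 and 0.00317), and both kept their calls with any 1 library left out. Ly6g6c stood at 1.12 and 0.419 against 17.6 and 162 FPKM, 116-fold lower. It is 1 of the 15 lower genes but passed the filter only through labelled control, where it is high, so its call supports nothing by itself. Leaving out labelled Sox2 replicate 1 gave a fold of 214, leaving out labelled control replicate 1 one of 210, and leaving out the other control one of 22.9, and its call was lost with robust eBayes. Genes with large differences in opposite directions thus sit between members that did not pass. The number of lower genes in the span fell to 8 when labelled Sox2 replicate 1 was left out and to 3 when replicate 2 was, and the number of higher ones was 1 without either of these libraries or without labelled control replicate 2.

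**Figure D3:**
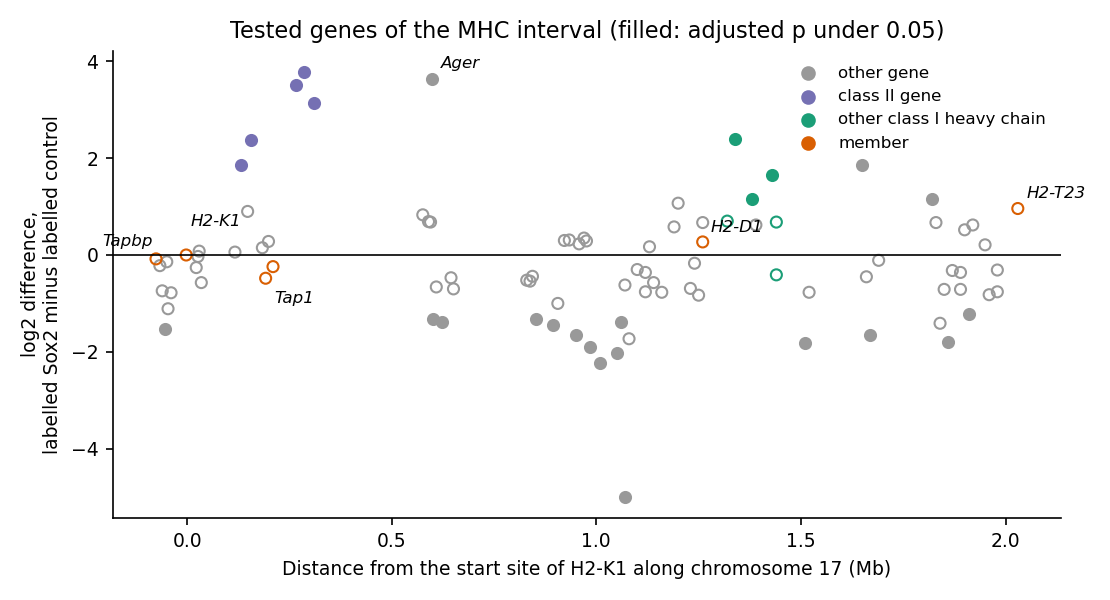
Log2 difference, labelled Sox2 minus labelled control, of each tested gene of the MHC span against its distance in Mb from the start site of H2-K1; filled points have a limma adjusted p under 0.05. The 6 members are open points between -0.48 and 0.96, and the signs of H2-K1, Tap2 and Tapbp turn under both rescalings. Ager at 3.64 and the class II genes of the list stand above them. The class II gene H2-DMb2, on no list, is drawn as another gene, an open point at 0.9.

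The genes whose pattern over the 4 libraries was most like the mean centred log2(FPKM + 1) profile of H2-K1, H2-D1 and B2m were St5, Naglu, Fbxl20, Dennd2d and Tmem63a. Their root mean square distances to it were 0.011, 0.0111, 0.0207, 0.0214 and 0.0277 log2 units, with 4 libraries behind each. St5 stood at 7.43 and 5.68 against 5.05 and 5.93 FPKM. The profile itself has labelled Sox2 replicate 1 highest, at 0.29 above the mean, and labelled control replicate 1 lowest, at -0.20.

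Processing choices moved single members more than they changed calls. Over 12 alternatives the difference of H2-K1 ranged from -0.17 to 0.35, that of H2-D1 from 0.13 to 0.62, that of B2m from 0.04 to 0.74 and that of Tap1 from -0.97 to 0.00. H2-T23 ranged from 0.19 to 1.74 and passed in 1 of the 12, the fit without labelled control replicate 2.

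**Figure D4:**
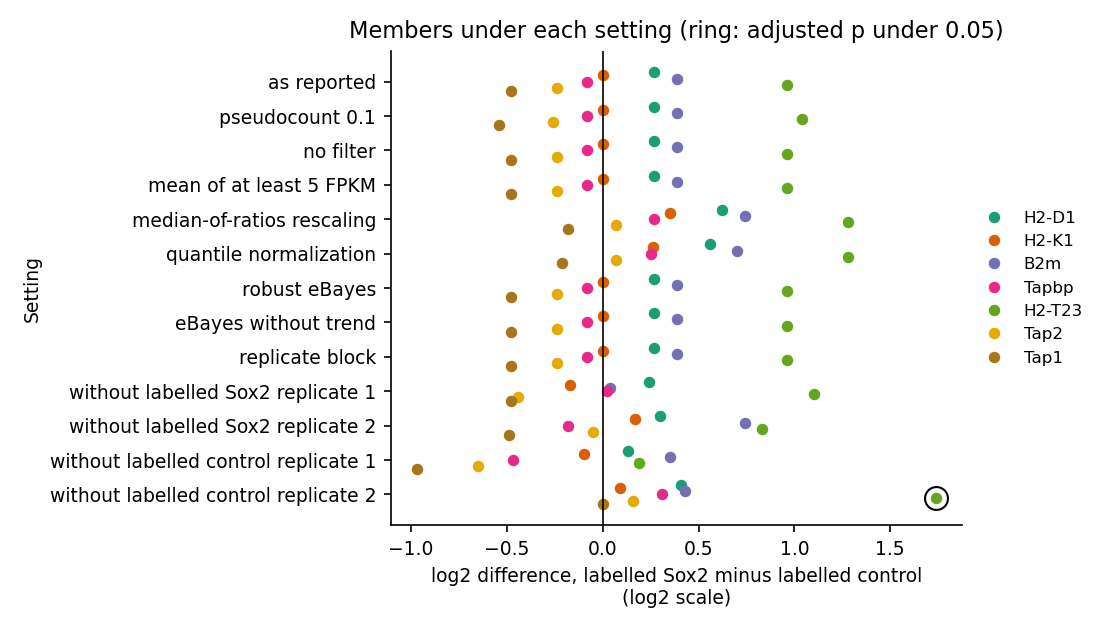
Log2 difference of each tested member, labelled Sox2 minus labelled control, as reported and under 12 alternatives, one row per setting; a ring marks an adjusted p under 0.05 in limma. The single ring is H2-T23 without labelled control replicate 2 at 1.74, and the signs of H2-K1, Tap2 and Tapbp turn under both rescalings.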

How the data were processed

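RNA of AT1 cells sorted from digested lung edge was sequenced as poly-A libraries on a HiSeq2000, per the labels' protocols. FPKM of each gene and the bounds around it were deposited, per the file headers. TopHat2, Bowtie2, Cufflinks and Cuffdiff with build mm10 are named in the submitters' processing notes. Their versions, the annotation and the strand setting are not stated in the sources used here. The tables hold no read counts, so absolute depth is unknown. A further table had 2 value columns that no label ties to a group, and it was not used.

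The 4 tables of 24490 entries were joined by symbol and position, and entries of one symbol were added (267 genes). Rn45s, marked as failed, was left out, which left 23990 genes. Locus starts, which count from 0 in the tables, are given from 1. The 12040 genes whose mean reached 1 FPKM were tested on log2(FPKM + 1) with limma 3.58.1 under R 4.3.3 (lmFit, eBayes with trend), in two-sided tests, and p-values were adjusted by Benjamini-Hochberg over those 12040 genes (threshold 0.05). The script was tested on simulated data. The log scale with its pseudocount understates changes of low genes, and the model leaves 2 residual degrees of freedom per gene. An exact permutation test of 1 gene cannot go below p = 0.333 and was not used.

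Groups came from the sample titles. The members and lists were chosen with earlier results of these data known. Named genes are the members, Sox2, up to 4 called genes of the largest difference per list or of the MHC span (the 2 most abundant where none passed), and the 5 genes nearest in pattern on no list, without RIKEN, Gm and small RNA symbols. H2-Q6, H2-Q7, H2-Q9, H2-M3, Psmb5 and Psmb6 were named after their values were seen. The alternatives were another pseudocount, other filters, both rescalings, other variance models, blocking on the replicate number, and leaving out each library.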

Additional observations from a re-analysis of the deposited data

How the results depend on the processing

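No member changed its call under the 8 alternatives that keep all libraries, and 1 was called higher, H2-T23, without labelled control replicate 2 (between 0 and 1 members higher with 1 library left out); the cause was not tested. No named gene past the threshold reversed its direction. When low genes were kept, limma called 0 of 18386 genes higher and 3 lower (1252 and 2623 at an unadjusted p under 0.05), 0 and 0 on the other pathway lists (12 higher and 4 lower as reported) and 0 and 0 in the MHC span, and of 19 named genes past the threshold 18 lost their call; 18386 genes are tested there in place of 12040, and the cause was not tested further. Median-of-ratios rescaling gave 972 genes higher and 690 lower, so that 58.5% of calls were higher (34.1% as reported). Quantile normalization gave 980 and 827 (54.2%), with 5 higher in the MHC span. Without a variance trend that span had 1 gene higher. With 1 library left out, all genes ranged from 119 to 837 higher and from 115 to 1312 lower, the pathway lists from 4 to 15 higher and from 0 to 4 lower, and the MHC span from 1 to 3 higher and from 3 to 11 lower. With the replicate number as a replicate block, limma called 1142 genes higher and 2730 lower, 8 lower on the pathway lists, and 7 higher and 27 lower in the MHC span, and no member. The replicate 1 minus replicate 2 differences of the labels correlated at 0.234 across 12040 genes, but no label says that a number marks a shared litter or day, so the numbers are not taken as pairs. Depth is unknown, and the intervals of the members rest on 2 libraries a label.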
